A study of Rattus norvegicus with 62 samples.

Results

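Adam8, Pvt1 and Myc were followed in rat liver after the genotoxic hepatocarcinogen diethylnitrosamine (DEN), at 2 doses and 2 sampling times, and beside 5 other treatments. The genes were found by symbol, which gave 3 of the 14217 genes and 4 of the 20826 probe sets that carry 1 gene symbol. They had been chosen with their signals after DEN known, so their values after DEN are a description, given with standard errors and without a test. Differences of Pvt1 and Myc under the other treatments were tested. Gene expression had been measured on Affymetrix arrays in 62 liver RNA samples from 31 male Crj:CD(SD)IGS rats, each sampled at partial hepatectomy (5w) and at the end of the study (10w).

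The study followed a 2-stage liver carcinogenesis protocol, in which an initiator comes first and a promoter follows. An initiator was dosed over 1 or 2 weeks and stopped for 2 weeks, after which the promoter phenobarbital (PB) was supplied in the drinking water at 500 ppm over 6 weeks. Partial hepatectomy, the surgical removal of part of the liver that makes the remainder regrow, took place 1 week into promotion. The MC/water rats had the methylcellulose vehicle and plain water, and the MC/PB rats had the vehicle and PB. All other groups had PB after an initiator: DEN at 3 mg/kg (DEN3/PB) or 30 mg/kg (DEN30/PB), thioacetamide at 45 mg/kg (TAA/PB), methapyrilene at 100 mg/kg (MP/PB) or acetaminophen at 1000 mg/kg (APAP/PB). The labels write these doses as mpk, read here as mg per kg of body weight, and give no age. DEN3/PB, TAA/PB and MP/PB had 5 rats each and the other groups 4 each, so that the 7 treatments at 2 weeks made 14 groups.

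ADAM8 is a membrane metalloprotease and disintegrin that sheds cell surface proteins and is best known from leukocytes and from invasive tumour cells. PVT1 is a long non-coding RNA whose gene lies beside MYC, is known as a transcriptional target of p53, and is often co-amplified with MYC in cancer. MYC is a transcription factor that pairs with MAX and drives genes of ribosome assembly, metabolism and cell growth, and in liver it is an early-response gene after hepatectomy. Adam8 is shown first because its DEN groups stood furthest from the rest. A stretch of 30 bases upstream of the annotated Adam8 start is printed because it held every match found among the 4 promoter motifs searched (RefSeq, GRCr8, chr1:204218393-204218422, minus strand, bases 100 to 71 before the start, written 5′ to 3′ along the gene).
Adam8: cCCGCCCcacagtccagtgATTGGctagtt
Capitals mark a GC box (GGGCGG, here read on the opposite strand as CCGCCC, 99 to 94 bases before the start) and a CCAAT box (CCAAT, here read on the opposite strand as ATTGG, 81 to 77 bases before it). The motifs were searched on both strands of the 250 bases before the start. A GC box was found in 30.5% and a CCAAT box in 34% of the 33469 upstream windows of that length in the RefSeq table. The E-box CACGTG, the sequence that MYC and MAX bind, and the AP-1 site TGANTCA had no match in the Adam8 window, and were found in 5.59% and 6.34% of all windows.

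Signals are the authors' MAS5 values on a linear scale, on which the arrays' trimmed means were all between 500.23 and 500.27, and a signal of 100 was taken as the minimum for a measured level. Between 49.9% and 54.8% of the probe sets of an array reached it. The arrays fell into 2 sets that cut across the treatments, defined from the main axis of variation between rats of a group (30 and 32 arrays, with 2 to 3 of each group in each set). All 31 rats stayed in the same set at both weeks, and values within each set are given beside the differences of the members between DEN and MC/PB. Differences are on the scale of log2(signal + 25), which understates the change of low signals. Liver RNA was measured in bulk, so more cells of a type and more RNA per cell cannot be told apart.

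Adam8 was near or below the measurable range in every group without DEN and clearly measurable in both DEN groups at 5w. The probe set used, 1392754_at, reached 100 on 14 of the 18 DEN arrays and on 0 of the 44 others, whose highest signal was 91.8. It entered the analysis through the DEN arrays alone, and its mean level stood at percentile 5.57 of the genes tested. A second Adam8 probe set, 1391720_at, never reached 100 on the 62 arrays (3.12 to 89.3) and gave no such difference. Its DEN3/PB minus MC/PB difference at 5w was 0 ± 0.28 (SE) and its DEN30/PB minus MC/PB difference was -0.1 ± 0.3, all of it below the measurable range. The Adam8 pattern thus rests on 1 of its 2 probe sets. Without DEN, Adam8 had no group with a signal of 100 or more. The 23 limma comparisons of Adam8 among those groups, of which 0 passed and 3 had an unadjusted p under 0.05, therefore compare levels below the measurable range. Their differences are given as values, without a p.

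At 5w the 4 MC/PB rats had Adam8 signals of 54.6, 43.5, 52.1 and 48.3. The 5 DEN3/PB rats had 382, 355, 191, 175 and 567, and the 4 DEN30/PB rats had 269, 235, 348 and 203. All DEN rats lay above all controls, with the lowest DEN signal at 175 and the highest signal of the 22 rats without DEN at 91.8. The difference from MC/PB was 2.15 ± 0.25 (SE, n = 5 and 4) after the low dose and 1.93 ± 0.26 (n = 4 and 4) after the high dose. With signals under 100 set to 100, these correspond to at least 3.03-fold and at least 2.59-fold higher geometric means. Within the array sets the low-dose differences were 2.25 and 1.96, and the high-dose differences 2.08 and 1.78. At an adjusted p under 0.05, limma called 0.0367% of the 10910 genes in the low-dose comparison and 0.119% in the high-dose comparison. Without regard to a test, 1.14% and 2.25% of genes were higher with no overlap. These are the comparisons that chose the genes, so nothing is read from Adam8 against that background.

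The 2 doses gave overlapping Adam8 signals. The higher dose minus the lower dose was -0.22 ± 0.25 at 5w (95% interval -0.73 to 0.29) and -0.23 ± 0.35 at 10w (-0.94 to 0.48). Without the DEN3/PB rat at 567 (replicate 5) the 5w value was -0.01. The doses are 10-fold apart. As the genes were chosen with their signals after DEN known, the intervals are a description, and no dose effect is read from them. The low-dose group was the more variable at 5w, with a standard deviation of 0.66 against 0.3.

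**Figure D1:**
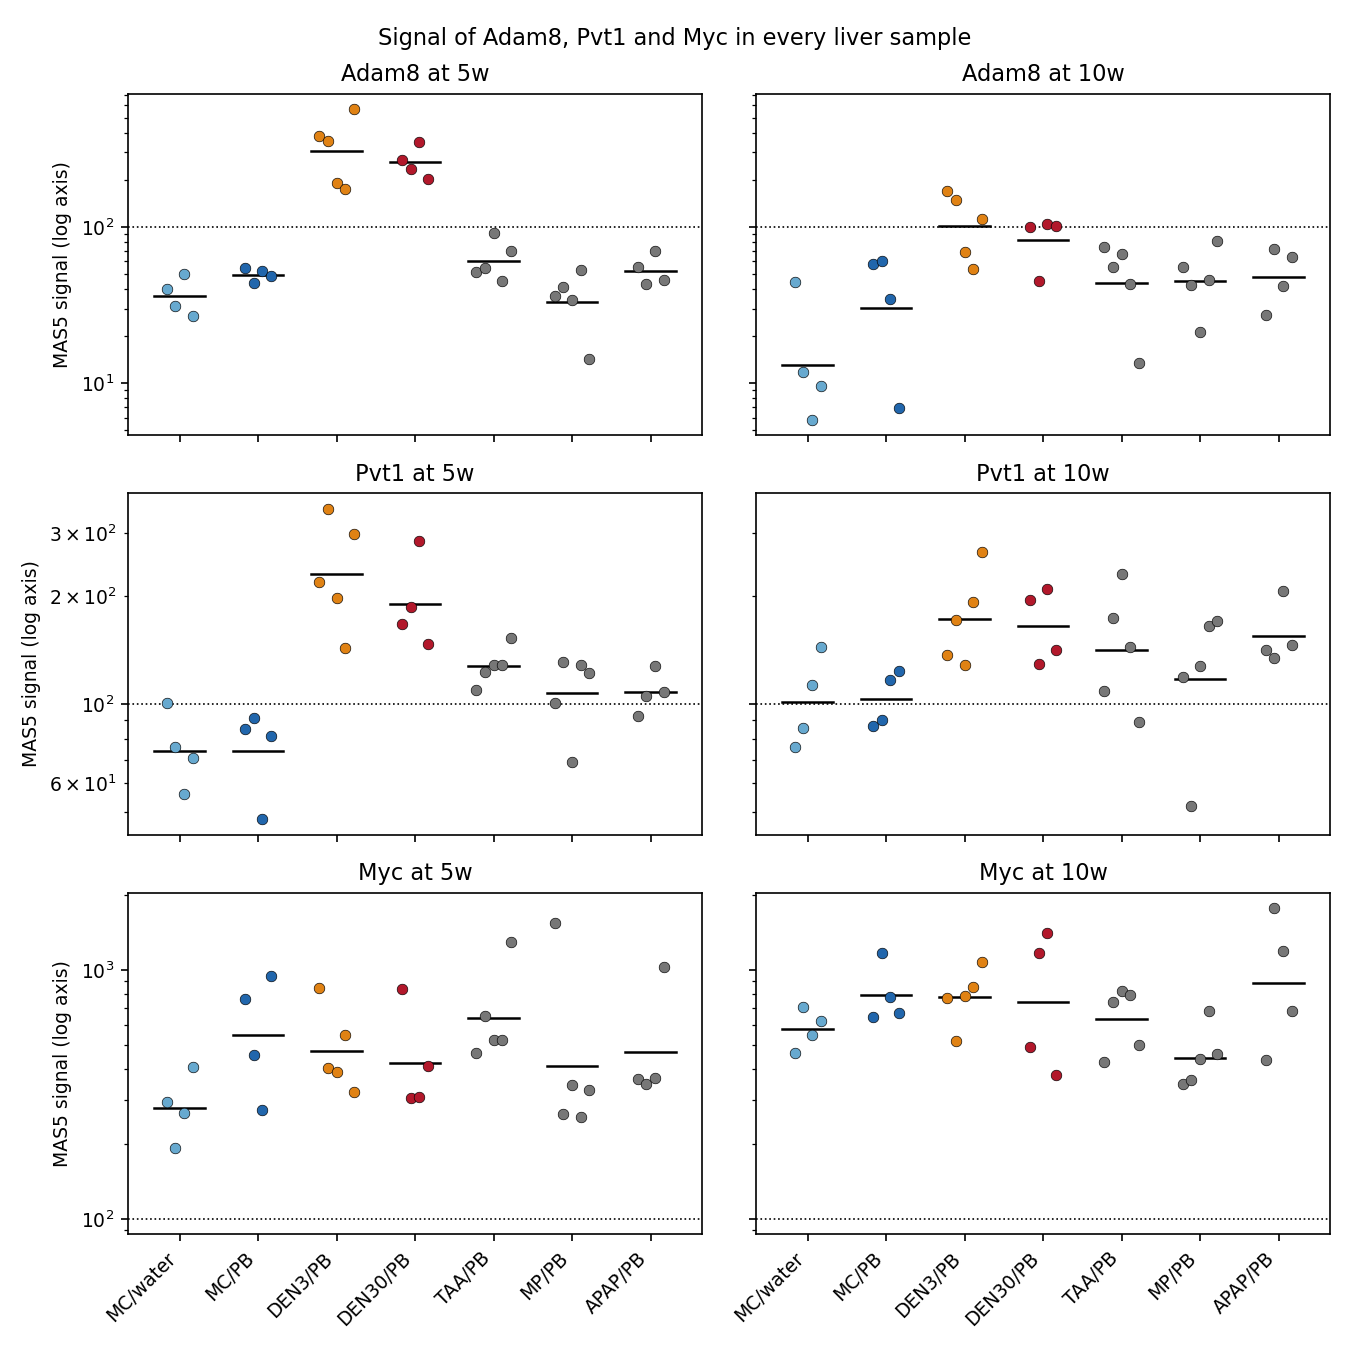
MAS5 signal (log axis) of Adam8, Pvt1 and Myc in every liver sample at 5w (left) and 10w (right), with the 7 treatments along the x axis. Each point is 1 rat, black bars are geometric means and the dotted line is the minimum of 100; at 5w the Adam8 signals of the 9 DEN rats (175 to 567) all lie above the other 22 (14.3 to 91.8), and Myc signals overlap between DEN and MC/PB.

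At 10w Adam8 was lower than at 5w in every DEN rat. The 5 DEN3/PB signals were then 169, 149, 68.6, 53.5 and 113, the 4 DEN30/PB signals were 99.9, 45.1, 103 and 101, and the 4 MC/PB signals were 57.5, 60.8, 34.7 and 6.9. The DEN signals overlapped those of MC/PB. The differences from MC/PB were 1.08 ± 0.35 and 0.85 ± 0.36 for the low and high dose. With signals under 100 set to 100 in both groups, the geometric means differed 1.23-fold and 1.01-fold. Some DEN signals were also under 100, so these folds are not lower bounds. Within the array sets the low-dose difference was 0.95 and 1.16, and the high-dose difference 0.85 and 0.84. Without the MC/PB rat at 6.9 (replicate 4), the high-dose difference was 0.54. The background at 10w was 0.0183% of genes called after the low dose and 0.0275% after the high dose.

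In the same rats, the change in Adam8 from 5w to 10w ran from -2.1 to -0.86 across the 9 DEN rats, with a median of -1.23, so all 9 were lower at 10w. Among the 22 other rats 12 were lower and 10 higher at 10w, with a median change of -0.09. The fits between weeks, here and below, had no term for the rat. The group differences (10w minus 5w) were -1.37 ± 0.28 in DEN3/PB and -1.38 ± 0.32 in DEN30/PB, and the 5w and 10w signals did not overlap in either. In the same direction, 2.07% of all genes did not overlap in DEN3/PB and 2.24% in DEN30/PB. Relative to MC/PB, the DEN difference at 10w was smaller than at 5w by -1.07 ± 0.42 for the low dose and -1.08 ± 0.45 for the high dose. As the genes were chosen for high values at 5w, a lower value at 10w is not independent of that choice, and no test is given. In MC/PB the difference over the same interval was -0.3 ± 0.32, between signals under 100, and limma called 1.31% of genes there.

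Pvt1 had its 4 DEN groups in the same order as Adam8, with smaller differences from MC/PB. Its probe set, 1384449_at, reached 100 on all 18 DEN arrays and on 29 of the 44 others, of which the highest had 230.3. At 5w the MC/PB signals were 85.3, 91.2, 47.7 and 81.5, all under 100. The DEN3/PB signals were 219, 351, 197, 143 and 298, and the DEN30/PB signals were 167, 186, 285 and 147. Every DEN rat lay above every MC/PB and MC/water rat, but the lowest DEN signal, 143, was below the highest TAA/PB signal, 153. Against MC/PB, 1.14% of all genes were higher without overlap after the low dose and 2.25% after the high dose. No share was computed for both control groups together. These comparisons chose the genes, so nothing is read from Pvt1 against that background. The differences from MC/PB were 1.36 ± 0.21 and 1.11 ± 0.22, at least 2.3-fold and at least 1.9-fold. Within the 2 array sets the high-dose difference was 1.45 and 0.78, and the low-dose difference 1.54 and 1.18. The higher dose minus the lower dose was -0.25 ± 0.21 (95% interval -0.68 to 0.18).

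At 10w every DEN rat was above every MC/PB rat for Pvt1, but not above every MC/water rat. The DEN3/PB signals were 137, 172, 129, 192 and 265, the DEN30/PB signals 195, 129, 209.9 and 142, and the MC/PB signals 86.7, 90.1, 117 and 124. The gap between the groups was narrow, from 124 to 129. The MC/water signals were 76.0, 85.7, 113 and 144, and the highest of them exceeded 2 DEN3/PB and 2 DEN30/PB signals. The differences were 0.63 ± 0.25, or 1.55-fold, and 0.57 ± 0.26, or 1.49-fold, on the log2(signal + 25) scale. In these comparisons 1.05% and 1.95% of all genes were higher without overlap. Within the array sets the low-dose difference was 0.62 and 0.66, and the high-dose difference was 0.85 and 0.29. The doses differed by -0.06 ± 0.25 (95% interval -0.57 to 0.45).

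Pvt1 was lower at 10w than at 5w in 7 of the 9 DEN rats and higher in 17 of the 22 others. The group change was -0.37 ± 0.22 in DEN3/PB and -0.18 ± 0.24 in DEN30/PB, with overlapping signals. The 2 vehicle groups had changes of 0.35 ± 0.24 in MC/water (limma adjusted p = 0.914) and 0.36 ± 0.24 in MC/PB (adjusted p = 0.641), neither of which passed. All 4 APAP/PB rats were higher at 10w without overlap, by 0.44 ± 0.24 (limma adjusted p = 0.494), where 3.36% of genes were higher without overlap and 1.47% were called. In TAA/PB and MP/PB, with 1.77% and 1.34% of genes called, the Pvt1 differences were 0.13 ± 0.22 and 0.12 ± 0.22 (limma adjusted p = 0.881 and 0.895). The narrowing of the DEN difference, by -0.73 ± 0.33 for the low dose and -0.54 ± 0.34 for the high dose, is the difference between these changes in the DEN groups and in MC/PB.

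**Figure D2:**
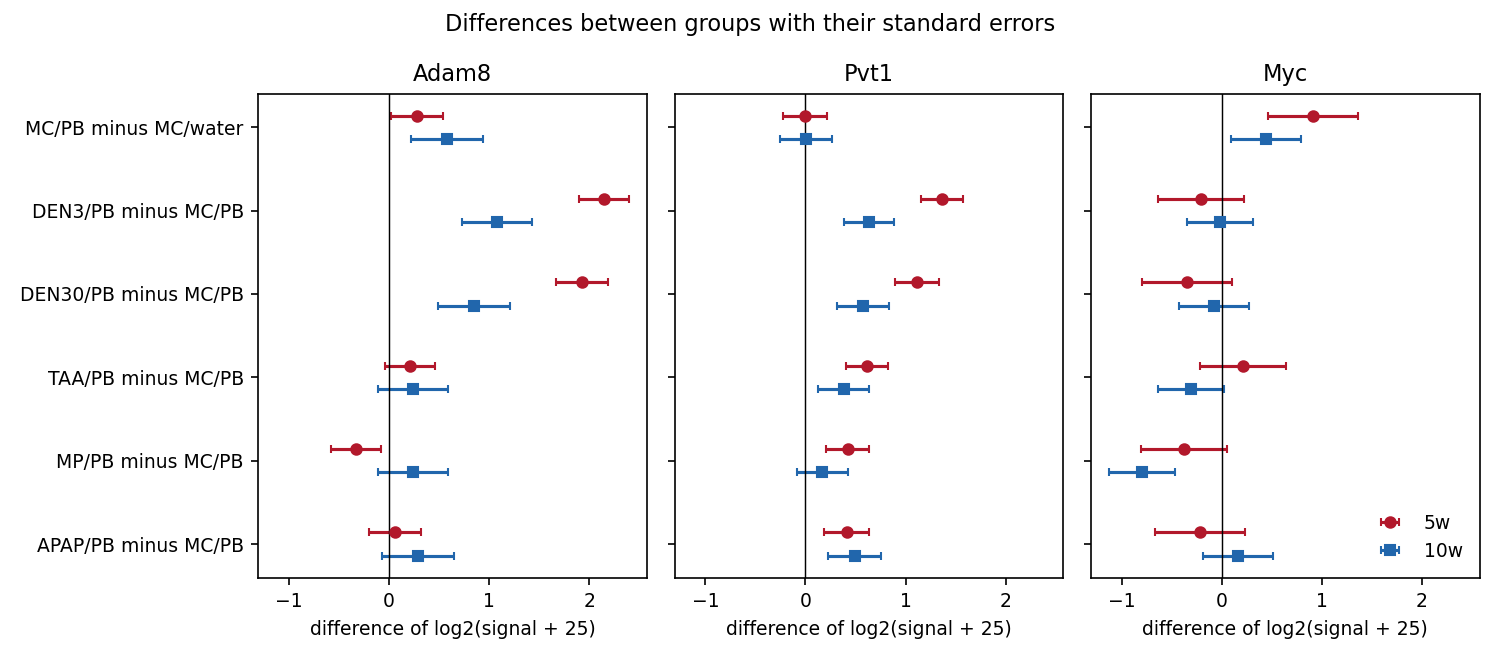
Differences of log2(signal + 25) between groups (points) with standard errors (bars) for Adam8, Pvt1 and Myc, at 5w (circles) and 10w (squares). Adam8 and Pvt1 stand highest after both doses of DEN at 5w (2.15 and 1.93, 1.36 and 1.11), while the DEN differences of Myc lie between -0.35 and -0.02.

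Myc was measurable on all 62 arrays, and its signals overlapped between DEN and MC/PB rats at both doses and weeks. At 5w its signals (probe set 1368308_at) were 763, 455, 274 and 942 in MC/PB, 849, 402, 390.0, 548 and 323 in DEN3/PB, and 838, 306, 308 and 409 in DEN30/PB. The groups overlapped, and the differences were -0.21 ± 0.43 and -0.35 ± 0.45 (95% intervals -1.08 to 0.67 and -1.28 to 0.57). Within array sets 1 and 2 the low-dose difference was 0.05 and -0.46, and the high-dose difference 0.14 and -0.85. At 10w the signals were 646, 1163, 777 and 672 in MC/PB, 769, 517, 784, 852 and 1074 in DEN3/PB, and 490.0, 1164, 1404 and 378 in DEN30/PB. The differences were -0.02 ± 0.33 and -0.08 ± 0.35 (95% intervals -0.7 to 0.66 and -0.8 to 0.63). Within array sets 1 and 2 they were 0.28 and -0.4 for the low dose, and 0.23 and -0.39 for the high dose. The sign thus turned between the sets at both doses and weeks. The 95% intervals are wide, and changes under about 1 on the log2 scale were not resolvable for Myc at this spread. Its standard deviation within a group reached 1.04, in MP/PB at 5w, where 1 rat had 1547 and the other 4 had 257 to 344.

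Between the weeks Myc was higher at 10w in 6 of the 9 DEN rats and in 16 of the 22 others. All 4 MC/water rats were higher at 10w, from 294, 193, 265 and 407 to 461, 709.6, 545 and 622, without overlap. That difference, 0.98 ± 0.42 or 1.97-fold, did not pass over all genes (limma adjusted p = 0.648), and 2.24% of genes were higher without overlap in that comparison (0.0458% were called). With the rat as a random block Myc did not pass either, while the genes called in MC/water went from 5 to 155. In DEN3/PB and DEN30/PB the changes were 0.69 ± 0.38 and 0.77 ± 0.42, with overlapping signals.

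**Figure D3:**
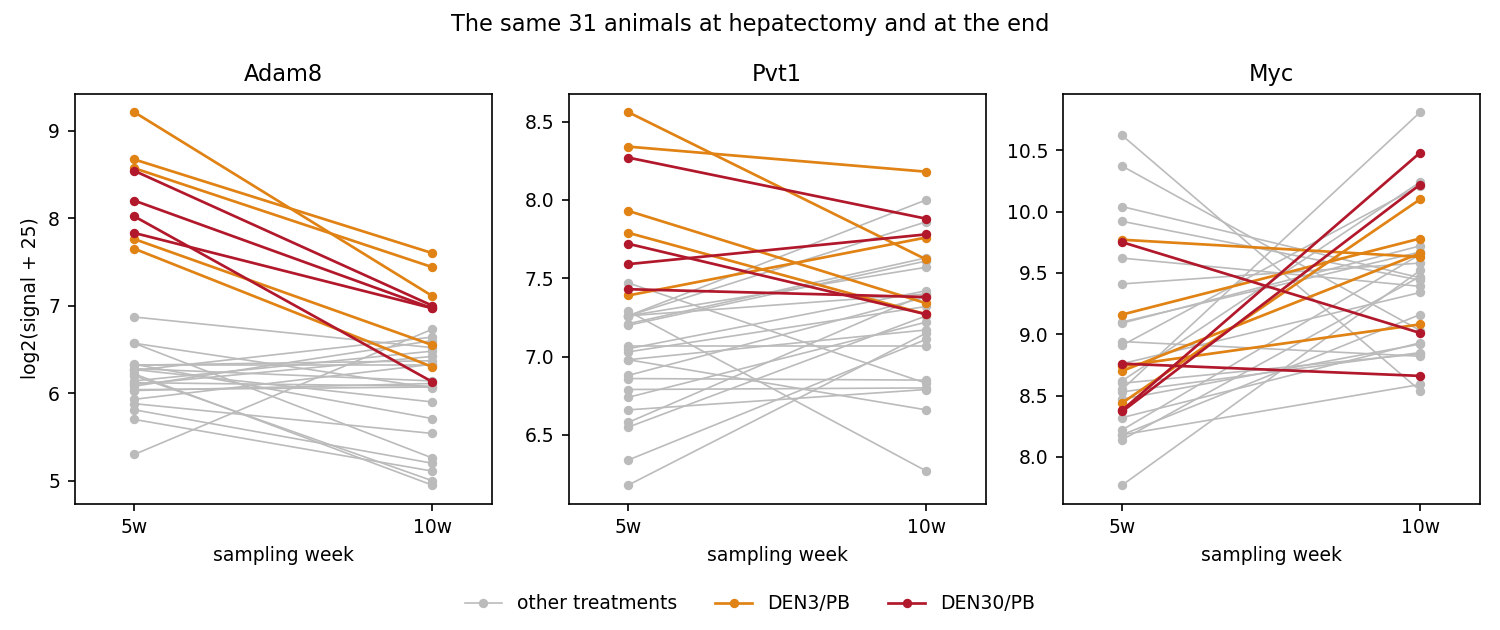
log2(signal + 25) of Adam8, Pvt1 and Myc in the same 31 rats at 5w and 10w; each line is 1 rat, coloured for DEN3/PB and DEN30/PB and grey for the other treatments. Adam8 is lower at 10w in all 9 DEN rats, Pvt1 in 7 of 9, and Myc in 3 of 9.

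Ordered by mean level over the 14 groups, both Adam8 and Pvt1 had the 4 DEN groups on top, in the sequence DEN3/PB at 5w, DEN30/PB at 5w, DEN3/PB at 10w and DEN30/PB at 10w. For Adam8 the means of log2(signal + 25) were 8.37, 8.15, 7 and 6.77, followed by TAA/PB at 5w with 6.43 and ending with MC/water at 10w with 5.34. Neighbours in this order differed by more than the standard deviation of either group at 2 places, between DEN30/PB at 5w and DEN3/PB at 10w (a step of 1.15) and between MP/PB at 5w and MC/water at 10w (0.54). For Pvt1 the DEN means were 8, 7.75, 7.63 and 7.58, followed by APAP/PB at 10w with 7.49, TAA/PB at 10w with 7.39 and TAA/PB at 5w with 7.26. The 1 step of Pvt1 beyond both standard deviations was 0.35, between MC/water at 10w and MC/PB at 5w. Myc had a different order, from APAP/PB at 10w (9.84) and MC/PB at 10w (9.67) down to MC/water at 5w (8.26), and none of its 13 neighbouring steps exceeded both standard deviations.

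The other initiators were compared with MC/PB at each week by limma, with Benjamini-Hochberg adjustment over the 10910 genes. The MC/PB rats of these comparisons also stand in the DEN comparisons that chose the genes. For Pvt1 and Myc none of the 12 tests passed, 2 had an unadjusted p under 0.05, and the adjusted p ran from 0.548 to 0.999. The background was low, at 5w 0.0183% of genes called for TAA/PB, 0.055% for MP/PB and 0% for APAP/PB (773 genes had an unadjusted p under 0.05 there), and at 10w 0.00917%, 0.0825% and 0.0642%. The Adam8 values lay between -0.33 ± 0.25 (MP/PB at 5w) and 0.29 ± 0.36 (APAP/PB at 10w), with overlapping signals. Adam8 signals at 5w ran from 44.7 to 91.8 in TAA/PB, 14.3 to 52.9 in MP/PB and 42.8 to 69.8 in APAP/PB, all under the minimum of 100.

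Pvt1 had positive differences from MC/PB after all 3 of these initiators at both weeks, none of them called. After thioacetamide at 5w its signals were 109, 123, 129, 129 and 153, above all 4 MC/PB signals (47.7 to 91.2). That difference was 0.61 ± 0.21 (95% interval 0.19 to 1.04, n = 5 and 4, limma adjusted p = 0.7), in a comparison where 0.99% of genes were higher without overlap. After acetaminophen the signals were 92.9, 106, 128 and 108 at 5w and 142, 135, 207 and 146 at 10w, again above those of MC/PB. The differences were 0.41 ± 0.22 (adjusted p = 0.751) and 0.49 ± 0.26 (adjusted p = 0.832), and at each week 1.65% of genes were higher without overlap. After methapyrilene they were 0.42 ± 0.21 at 5w (adjusted p = 0.637) and 0.17 ± 0.25 at 10w (adjusted p = 0.914), with overlap. The DEN differences of Pvt1 were not tested against these differences.

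Myc ranged between -0.8 ± 0.33 (MP/PB at 10w, signals 347, 361, 438, 686 and 461, limma adjusted p = 0.548) and 0.21 ± 0.43 (TAA/PB at 5w, adjusted p = 0.999). The difference of an initiator effect between the weeks was tested for PB, TAA, MP and APAP. None of the 8 interaction tests of Pvt1 and Myc passed (limma, 0 with an unadjusted p under 0.05, adjusted p = 1 throughout), and 0% of all genes were called.

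Phenobarbital without an initiator gave Pvt1 differences near 0. MC/PB minus MC/water was 0 ± 0.22 at 5w (limma adjusted p = 0.996) and 0.01 ± 0.26 at 10w (adjusted p = 0.993), with 95% intervals of -0.45 to 0.45 and -0.52 to 0.55. The 5w MC/water signals of Pvt1 were 101, 75.8, 55.9 and 70.6, and its 5w MC/PB signals were all under 100. The 5w difference of Pvt1 thus lies largely below the measurable range. PB called 1.18% of all genes at 5w and 2.13% at 10w. The Adam8 values were 0.28 ± 0.26 and 0.58 ± 0.36, between signals that were all under 100. Its MC/water signals were 40.2, 31.1, 49.5 and 27.0 at 5w and 44.2, 11.8, 5.84 and 9.58 at 10w. Myc differed by 0.91 ± 0.45 at 5w (95% interval -0.01 to 1.84, adjusted p = 0.479) and 0.44 ± 0.35 at 10w (adjusted p = 0.655).

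Against MC/water, a comparison that shares no array with those that chose the genes, the 3 initiators with PB gave 12 further tests of Pvt1 and Myc. None passed (limma, adjusted p from 0.128 to 0.88), and 2 had an unadjusted p under 0.05. Of all genes 2.26%, 2.99% and 2.49% were called at 5w for TAA/PB, MP/PB and APAP/PB, and 5.16%, 4.68% and 5% at 10w. The smallest adjusted p belonged to Pvt1 in TAA/PB at 5w, 0.62 ± 0.21 higher without overlap (95% interval 0.19 to 1.05, limma adjusted p = 0.128). Of the 4 MC/water signals 1 reached 100. With signals under 100 set to 100 the difference corresponds to at least 1.27-fold. Myc in TAA/PB at 5w was also above all MC/water rats, with 465, 655, 521, 523 and 1295 against 193 to 407. The difference was 1.12 ± 0.43 (adjusted p = 0.207), and 3.36% of genes were higher without overlap there. The Adam8 values at 10w were 0.82 ± 0.35, 0.82 ± 0.35 and 0.87 ± 0.36 in TAA/PB, MP/PB and APAP/PB, between groups entirely under 100, so no fold is given.

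Correlations within the 9 DEN rats, with each dose group centred on its mean, are given as a description, since they run on the values that chose the genes. Between Adam8 and Pvt1 at 5w Pearson's r was 0.786 and Spearman's rho 0.8. Without the 2 rats farthest from the median of Adam8 r was 0.688, and centred within dose and array set it was 0.798. At 10w the same pair had r = 0.182 and rho = 0.1. Between Adam8 at 5w and Adam8 at 10w r was 0.663 and rho 0.6.

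Pvt1 and Myc, the neighbouring genes, had r = -0.452 and rho = -0.5 in the DEN rats at 5w, and r = 0.266 and rho = 0.2 at 10w. In the 22 other rats, centred within treatment, they had r = 0.153 and rho = 0.0107 at 5w. At 10w these other rats had r = 0.384 and rho = 0.46 (100000 permutations, two-sided p = 0.0656 and 0.0389). Over the 9 relations examined in these rats the adjusted p was 0.59 and 0.35, so the relation did not pass. Without the 2 rats farthest from the median of Pvt1 r was 0.333, and centred within treatment and array set it was 0.479.

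**Figure D4:**
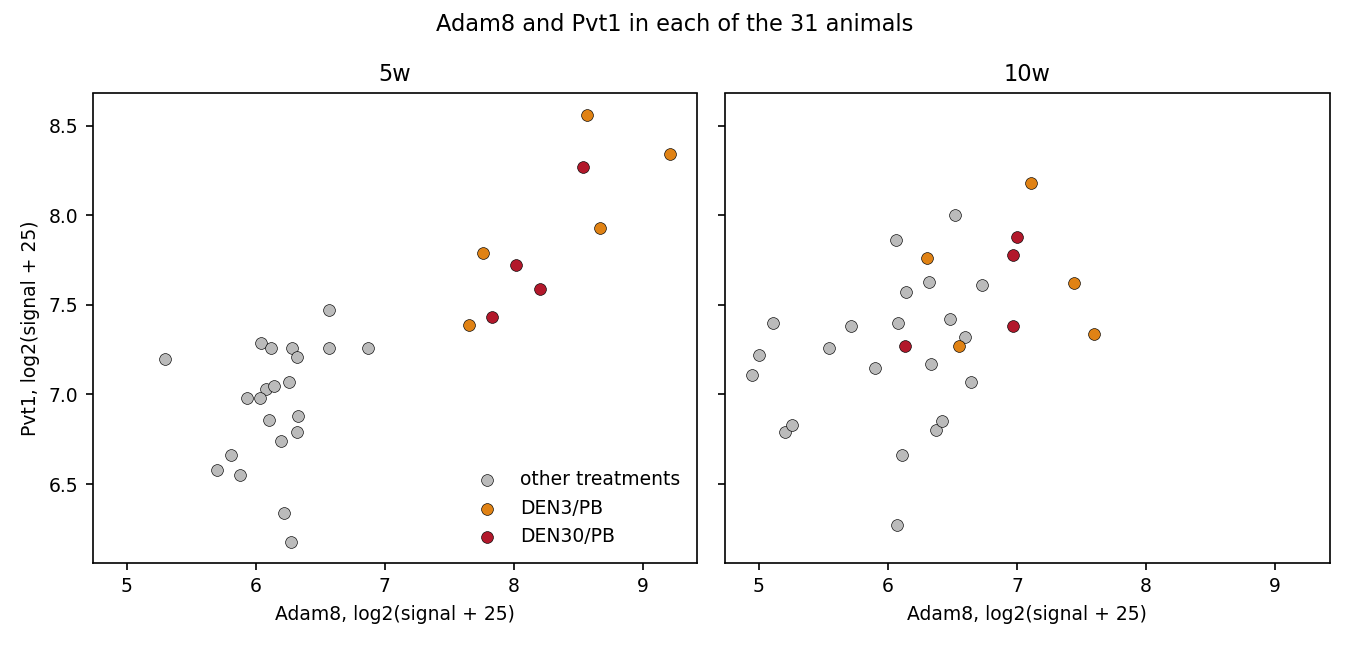
Adam8 (x axis) against Pvt1 (y axis) as log2(signal + 25) in each of the 31 rats at 5w (left) and 10w (right); points are rats, coloured for the DEN doses and grey for other treatments. At 5w the 9 DEN rats lie apart on the Adam8 axis (r = 0.786 within dose), and at 10w they overlap the others (r = 0.182 within dose).

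The genes most like each member were listed as a description, by Pearson's r of the 14 group means among 10909 other genes. The points share rats between weeks, and no p is given. Nearest to Adam8 were Mgmt (0.855), which encodes the DNA repair protein that removes alkyl groups from guanine, Marcksl1 (0.841), the hexokinase gene Hk1 (0.836), Obp1f (0.832) and Atp6v1d (0.824), a subunit of the vacuolar proton pump. Pvt1 came sixth for Adam8, at 0.8, and Adam8 came 11th for Pvt1. Nearest to Pvt1 were Atp6v1d (0.896), the copper transporter Atp7a (0.863), Eppk1 (0.857), the TNF family ligand Tnfsf12 (0.855) and the glutamate transporter Slc1a6 (0.855). These genes were picked because their group means follow those of Adam8 or Pvt1, which were highest in the DEN groups at 5w. Their DEN differences at 5w are not independent of that choice, and nothing is read from their p. Atp6v1d differed from MC/PB in DEN3/PB at 5w by 0.68 ± 0.12 (limma adjusted p = 0.0089), and in DEN30/PB by 0.39 ± 0.12 (adjusted p = 0.462). Atp6v1d did not pass without MC/PB replicate 1 or without DEN3/PB replicate 4, within either array set, or with only the compared groups. Mgmt differed by 0.67 ± 0.21 (adjusted p = 0.495) and 0.3 ± 0.23 (adjusted p = 0.982). Nearest to Myc were Zpr1 (0.946), Mterf2 (0.903), Tpd52 (0.886), Gstcd (0.876) and the bicarbonate transporter Slc4a4 (0.87). Myc was not among the genes near the other members, with r = 0.322 to Pvt1 (rank 2176) and -0.075 to Adam8.

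Within groups, across the residuals of the 62 arrays, the order was different. Myc ran with the stress and early-response genes Gadd45a (0.66), Cish (0.588), Plk2 (0.562), Ier3 (0.553) and Klf6 (0.541). Adam8 ran with Lrp2 (0.564), Atn1 (0.526), Zfc3h1 (0.516), LOC102554403 (0.511) and Strn (0.5), and Pvt1 with Qsox1 (0.506), Rnf113a2 (0.473), Tmem177 (0.468), Mapk1ip1l (0.444) and Gtf2b (0.436). Adam8 and Pvt1 had a residual r of 0.214, and Pvt1 and Myc 0.133. These residuals contain the array sets and the repeated rats.

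Of the genes next to the members, 6 beside Myc, Pvt1 and Adam8 could be tested after DEN. Myc and Pvt1 are adjacent in the RefSeq gene order among genes on the array, and the next genes were A1bg and Trib1, a pseudokinase gene, on the Myc side and Cyrib and Asap1 on the Pvt1 side. At 5w their DEN3/PB and DEN30/PB differences were -0.12 ± 0.32 and 0.63 ± 0.33 for A1bg, 0.07 ± 0.29 and -0.51 ± 0.3 for Trib1, -0.09 ± 0.13 and 0.08 ± 0.13 for Cyrib, and -0.12 ± 0.16 and -0.29 ± 0.17 for Asap1. Beside Adam8, Tubgcp2, a gamma-tubulin complex gene, differed by 0.06 ± 0.12 and -0.05 ± 0.13, and Zfp511 by -0.24 ± 0.21 and -0.17 ± 0.23. None of these 6 genes passed (limma adjusted p from 0.916 to 0.999), and Kndc1 and Adgra1, on the other side of Adam8, did not pass the filter on low signals.

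Genes that work with the 3 members were taken from lists chosen by function. In the 4 comparisons of DEN with MC/PB, 0 of the tested genes of the MYC, ADAM and p53 lists passed. With 0.0367% and 0.119% of all genes called at 5w and 0.0183% and 0.0275% at 10w, that is near the background, and nothing is read from it. The MYC network, the partners and antagonists of MYC, had 14 of 16 genes past the filter, with median differences at 5w of 0.07 and 0.07 for the low and high dose, and at 10w of 0.08 and 0.14. The medians of all genes were between 0 and 0.02. Max, the obligate partner of MYC, differed by -0.15 ± 0.14 and 0.08 ± 0.14 at 5w, the repressor genes Mxd1 by 0.05 ± 0.15 and 0.03 ± 0.16 and Mnt by -0.23 ± 0.16 and -0.22 ± 0.17, and Mga by 0.35 ± 0.19 and 0.38 ± 0.2 (limma adjusted p from 0.896 to 0.999 for these 4).

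Among MYC targets of ribosome making and growth, 26 of 30 were tested, with medians of 0.05 and 0.11 at 5w and -0.03 and -0.05 at 10w. After the high dose 22 of the 26 had a positive difference at 5w (84.6% against 53.2% of all genes) and 8 at 10w (30.8% against 54.1%). After the low dose it was 16 at 5w (61.5% against 50.3%) and 10 at 10w (38.5% against 55.4%). Without DEN, against the same MC/PB rats, 23 were positive for TAA/PB, 13 for MP/PB and 18 for APAP/PB at 5w. At 10w it was 9, 5 and 6, with 49.7% to 52.8% of all genes positive in these comparisons. The counts after the high dose were thus not particular to DEN. After the low and high dose of DEN at 5w, the nucleolar protein gene Ncl differed by 0.01 ± 0.1 and -0.03 ± 0.1, and Odc1, of polyamine synthesis, by -0.05 ± 0.11 and 0.15 ± 0.12. In a comparison without DEN, PB at 10w, 25 of these 26 genes had a positive difference, with a median of 0.22 against -0.01 over all genes (47.9% of which had a positive difference). For PB at 5w it was 10 of 26, with a median of -0.04 against 0. At 10w 1 of the 26 passed, the spermidine synthase gene Srm (0.49 ± 0.13, limma adjusted p = 0.0478), where 2.13% of all genes were called. In TAA/PB against MC/water at 5w, where Myc itself was 1.12 ± 0.43 higher without passing, Odc1 (0.5 ± 0.11, adjusted p = 0.012) and Srm (0.49 ± 0.13, adjusted p = 0.0419) rose. The list's median there was 0.1 against 0 over all genes, of which 2.26% were called. The Srm call was held in 1 of 8 fits that left out 1 array under PB and in 2 of 9 in TAA/PB, and the Odc1 call in 8 of 9, being lost without MC/water replicate 3. Srm also did not pass, in either comparison, with no filter, with all probe sets, within either array set and with only the compared groups. With the replicate number as a block it did not pass in TAA/PB (0.48). Odc1 did not pass within either array set or with only the compared groups.

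Of 15 other ADAM and ADAMTS protease genes 13 were tested, with medians of 0.04 and 0.01 at 5w and 0.06 and 0.19 at 10w. Adam17, the TNF-converting sheddase, differed by 0.03 ± 0.13 and 0.05 ± 0.13 at 5w, and Adam10, the Notch sheddase, by 0.18 ± 0.16 and 0.25 ± 0.17. The extracellular Adamts1 and Adamts9 had differences of 0.49 ± 0.16 and 0.56 ± 0.21 after the high dose (limma adjusted p = 0.504 and 0.575). Of 10 known substrates and partners of ADAM8, 7 had a probe set of 1 gene symbol and 3 passed the filter on low signals. Those were Mmp14 (0.21 ± 0.19 and 0.4 ± 0.2 at 5w), Tnfrsf1a (-0.03 ± 0.09 and -0.08 ± 0.09) and Itgb1 (-0.01 ± 0.13 and 0.09 ± 0.14), none of which passed.

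Pvt1 is a known p53 target, and 16 of 23 other p53 targets were tested, with medians of 0.1 and 0.07 at 5w and 0.06 and 0 at 10w. At 5w 10 of the 16 had a positive difference after the low dose (62.5% against 50.3% of all genes). After the high dose it was 11 (68.8% against 53.2%). The cell cycle inhibitor gene Cdkn1a had a difference of 1.02 ± 0.2 in DEN3/PB at 5w (limma adjusted p = 0.0539), Mdm2, the p53 ubiquitin ligase gene, 0.52 ± 0.12 (adjusted p = 0.094) and Ccng1 0.61 ± 0.15 (adjusted p = 0.176). None passed. In DEN30/PB they had 0.37 ± 0.22, 0.17 ± 0.12 and 0.27 ± 0.16 (adjusted p = 0.95, 0.967 and 0.95), and the dose difference did not pass for Cdkn1a (-0.66 ± 0.2, adjusted p = 0.666). Gadd45a, of the same list, had -0.51 ± 0.32 and -0.79 ± 0.34 after the low and high dose at 5w (limma adjusted p = 0.996 and 0.753). After the high dose at 10w Cdkn1a had -0.62 ± 0.21 and Sesn2 -0.52 ± 0.14 (limma adjusted p = 0.68 and 0.474). For comparison, Gstp1, the marker of preneoplastic rat liver foci, rose after the high dose by 1.58 ± 0.3 at 5w (adjusted p = 0.0171) and 2.65 ± 0.41 at 10w (adjusted p = 0.00493). After the low dose its differences were 0.39 ± 0.28 and 0.9 ± 0.39 (adjusted p = 0.999 and 1). Its dose difference did not pass (1.19 ± 0.28 at 5w and 1.75 ± 0.39 at 10w, adjusted p = 0.221 and 0.329). The Gstp1 call at 5w was lost without MC/PB replicate 3 or 4 or without DEN30/PB replicate 1 or 3, and that at 10w without MC/PB replicate 4 or DEN30/PB replicate 1. At both weeks Gstp1 did not pass within array set 2 (0.93 and 1.93) or with only the compared groups.

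Because ADAM8 is a leukocyte protein, markers of liver macrophages and granulocytes were read beside it. At 5w the summed signal of the 9 measured macrophage markers ran from 15222 to 19399 in MC/PB, 12950 to 18711 in DEN3/PB and 13472 to 19381 in DEN30/PB, and the ranges overlapped. The median difference of the list was -0.01 and -0.03, and 0 of 9 passed. A positive difference was held by 4 of the 9 after the low dose and 3 after the high dose (44.4% and 33.3%, against 50.3% and 53.2% of all genes). The 3 named next were negative at both doses. Cd68 differed by -0.09 ± 0.19 and -0.03 ± 0.21, Cd14 by -0.8 ± 0.23 (limma adjusted p = 0.368) and -0.45 ± 0.24, and Cd163 by -0.43 ± 0.19 and -0.74 ± 0.2 (adjusted p = 0.254 for the latter). Of 7 granulocyte markers 5 had a probe set of 1 gene symbol and 2 passed the filter, S100a8 and S100a9. Their summed signals were 125 to 156 in MC/PB, 105 to 255 in DEN3/PB and 97 to 267 in DEN30/PB. At 5w 1 of the 2 was under 100 on every MC/PB and DEN30/PB array. S100a8 differed by 0.52 ± 0.38 and 0.01 ± 0.4 and S100a9 by 0.06 ± 0.3 and 0.38 ± 0.32, with medians of 0.29 and 0.19 for the pair, and neither passed (limma). Lymphocyte markers (5 of 10 past the filter) had summed signals of 715 to 1024, 831 to 1128 and 888 to 1118, with medians of 0.19 and 0.23 for the differences. After each dose 4 of these 5 (80%) and 2 of the 2 granulocyte markers had a positive difference, against 50.3% and 53.2% of all genes. None of the 5 passed. The lymphocyte medians at 5w were -0.21 for TAA/PB, -0.12 for MP/PB and 0.04 for APAP/PB. The part of these cell types in the Adam8 result was not tested.

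Of the remaining marker lists at 5w, none had a gene that passed after either dose, which is near the background of 0.0367% and 0.119% of all genes called, and nothing is read from it. Endothelial markers had median differences of 0.03 and 0.06, hepatocyte markers -0.01 and 0.01, stellate and fibroblast markers -0.06 and 0.3, biliary and progenitor markers 0 and 0.39, and proliferation genes -0.01 and -0.12. Mki67 differed by -0.13 ± 0.23 and 0.25 ± 0.24. At 10w the proliferation genes had a median of 0.76 after the high dose and 0.01 after the low dose, with 0 of 8 passing at either (limma). Hepatocyte markers were the most abundant on every array, with summed signals from 220844 to 271576 in MC/PB and 223407 to 260905 after DEN at 5w, as the liver label states.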

How the data were processed

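Liver total RNA had been hybridised to Affymetrix rat arrays, whose raw files were not used here. Per the submitters' processing notes the authors used MAS5 5.0, and the deposited values are its signal intensities on a linear scale. The table held 31099 probe sets on 62 arrays. Groups and doses came from the labels. The members and gene lists were chosen with earlier results of these data known.

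Values were analysed as log2(signal + 25). Probe sets had to reach 100 on at least 4 of the 62 arrays, and the probe set with the highest mean stood for its gene (10910 genes tested). Group means were fitted with limma 3.58.1 (lmFit, contrasts.fit and eBayes with a trend) in R 4.3.3, over the 31 arrays of a week, or over all 62 for comparisons between weeks, two-sided, with Benjamini-Hochberg adjustment and a threshold of 0.05. Between weeks the main fit had no term for the rat, which entered only as an alternative. The fit was tested on simulated data. The number of arrays limits the precision.

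Always named were the members, the next 2 genes on each side, the 5 most alike genes by each measure, and list genes that passed after DEN or up to 4 with the smallest p, beside a preset group including Max, Ncl, Cdkn1a, Gstp1, Cd68 and Adam17. Samples pair by rat between the weeks, as the series' design states: residuals of the same rat correlated by 0.21 to 0.392, against -0.03 to 0.104 for other rats of the same treatment and array set. The alternatives are no offset or 100, no filter or one within the week, quantile normalization, all probe sets, the array set as a block or each set alone, the compared groups alone, the replicate or rat as a block, and each replicate left out.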

Additional observations from a re-analysis of the deposited data

Results flagged for a closer look

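Dixon's test for a sample that stands apart was applied to 3 genes in 14 groups, 42 groups of values in all, where chance gives about 1 in 20, and 3 were marked. Adam8 in DEN30/PB at 10w had a low value of 6.13 in replicate 2 on the scale of log2(signal + 25), a signal of 45.1, where the other 3 rats lay between 6.97 and 7. Without that rat the Adam8 difference of DEN30/PB from MC/PB at 10w was 1.06. Myc in MP/PB at 5w had a high value of 10.62 in replicate 1, a signal of 1547, where the next rat had 8.53. Myc in APAP/PB at 5w had a high value of 10.04 in replicate 4, a signal of 1029, where the next rat had 8.62. Without them the Myc differences from MC/PB were -0.84 after methapyrilene and -0.58 after acetaminophen, and neither passed.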

How the results depend on the processing

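No member passed under any alternative in the 69 comparisons without DEN, of which the 23 of Adam8 lie below the measurable range. For the 30 described DEN results, a change of sign was counted only where the main value exceeded the standard deviation within groups. None was counted. The differences of Myc from MC/PB after DEN were smaller than that, so they could not be counted. Their signs did turn, being positive within array set 1 and negative within set 2 at both doses and weeks. Of 318 values of the described DEN results, 307 moved by less than 1 standard deviation and 11 by more. With an offset of 100 Adam8 was 1.46 and 1.27 above MC/PB at 5w after the low and high dose, its change between the weeks in DEN30/PB was -0.96, and Pvt1 was 0.93 and 0.73 above. With no offset Adam8 was 2.39 above after the high dose at 5w, and 1.74 and 1.45 above after the low and high dose at 10w. Within array set 1 Pvt1 was 0.85 above at 10w after the high dose, and within set 2 it was 0.29, where Myc after the low dose was -0.4. The offset sets how far a low signal is pulled together, and the cause of the other shifts was not tested.

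Signs of uncalled values turned in 22 of 732 tested values. Quantile normalization gave -0.04 for Pvt1 under PB at 5w, and the offset of 100 gave 0 for the change of effect between weeks of Pvt1 under PB and of Adam8 after TAA. Within set 1, at 5w, Pvt1 under PB was -0.17 and Myc after MP 0.65. At 10w Adam8 was -0.2 after MP and -0.25 after APAP. Between weeks, Adam8 in TAA/PB was 0.02, Myc in TAA/PB 0.26 and in MP/PB -0.88, and the APAP effect on Adam8 changed by -0.4. Within set 2, at 5w, Adam8 was -0.04 after APAP and 0.12 for MP against MC/water, where Myc was 0. At 10w Pvt1 under PB was -0.07 and Myc 0 in TAA against MC/water. Between weeks, Pvt1 in TAA/PB was -0.02 and in MP/PB -0.1, Adam8 in APAP/PB 0.43, and the effects changed by -0.25 for Pvt1 under PB, -0.01 for Adam8 after TAA and 0.32 for Myc after MP. The cause was not tested.

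Leaving out 1 array turned 45 of 696 tested values and moved none of 312 described values by over 1 standard deviation. For Adam8 the ranges were -0.04 to 0.12 (APAP at 5w), -0.15 to 0.1 (MP against MC/water at 5w), -0.06 to 0.47 (TAA at 10w), -0.07 to 0.41 (MP at 10w), -0.02 to 0.46 (APAP at 10w), -0.47 to 0.01 and -0.19 to 0.1 (between weeks in MC/PB and APAP/PB), and -0.27 to 0.26 and -0.07 to 0.4 (change of the TAA and APAP effects). For Pvt1 they were -0.1 to 0.16 and -0.1 to 0.15 (PB at 5w and 10w), -0.02 to 0.27 and -0.01 to 0.35 (between weeks in TAA/PB and MP/PB), and -0.14 to 0.15 and -0.04 to 0.23 (change of the PB and APAP effects). For Myc they were -0.1 to 0.46 and -0.58 to 0.03 (TAA and APAP at 5w), -0.16 to 0.5 (APAP at 10w), -0.13 to 0.23 and -0.07 to 0.55 (between weeks in TAA/PB and MP/PB), and -0.67 to 0.04 (change of the MP effect).

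The rat as a random block between weeks (consensus correlation 0.316) left Myc in MC/water at 0.98, and the replicate number as a block within a week gave 0.56 for Pvt1 after TAA at 5w (0.61 without it). Neither block changed a call of a member. Replicate numbers within a week gave over 0.1 for all 4 pairs in 4 of the comparisons. Counts over all genes moved more. Genes called after the low and high dose of DEN numbered 4 (0 to 11 over the alternatives) and 13 (0 to 15) at 5w, and 2 (0 to 2) and 3 (1 to 9) at 10w. PB called 129 (18 to 170) and 232 (34 to 390), and the rat as a block raised the calls between weeks in MC/water from 5 to 155, in MC/PB from 143 to 528 and in DEN30/PB from 0 to 159. Adam8 signals below 100 limit every statement on its level without DEN.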
